A study of Drosophila melanogaster with 8 samples.

Results

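Gene expression in the larval dorsal vessel of Drosophila melanogaster was set against that of the whole larva on 4 two-colour arrays, chosen by their titles from the 8 arrays of the series. Each array paired RNA of 5 hand-dissected dorsal vessels, taken as entire cardiac tubes, with RNA of 5 whole larvae, all at the L3 stage. All animals carried the strain label WT (yw; Canton S) and developed at 25 °C. The 4 pairs of pools are biological replicates. Dorsal vessel RNA was labelled with Cy3 in replicates 1 and 2 and with Cy5 in replicates 3 and 4, and whole larva RNA carried the other dye. From every pool, 100 ng of total RNA went through 2 rounds of amplification. A pool of 5 animals gives 1 value, so differences between single animals cannot be seen, and the sex of the larvae is not given in the labels. The whole larva also contains the dorsal vessel. A ratio therefore compares the vessel with a mixture of all larval tissues that includes it.

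The dorsal vessel is the pumping organ of the open circulation of insects. It is a muscular tube of cardiomyocytes under the dorsal epidermis, divided into a posterior heart with valves and inflow openings and a narrower anterior aorta. Pericardial cells, which take up proteins from the hemolymph by endocytosis (nephrocytes), lie along the tube, and the lymph gland, a blood-forming organ, flanks the aorta. The ring gland sits at its anterior end, and fat body, tracheal branches and nerve endings touch it, so that a dissected vessel can carry cells of several of these. Its formation depends on a set of transcription factors shared with the vertebrate heart, among them tinman (tin), the GATA factor pannier (pnr), Hand and the T-box genes midline (mid), H15 and the Dorsocross genes.

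Of 13296 genes on the array, 7027 exceeded the detection limit in dorsal vessel RNA or in whole larva RNA on 2 or more arrays and were tested. Median foreground intensity per channel was 1.22 to 2.46 RFU (relative fluorescence units) over a local background of 1.10 to 2.08 RFU, and 34.9% to 40.1% of gene spots were above detection in dorsal vessel RNA, against 38.9% to 54.2% in whole larva RNA. Log2 ratios correlated between replicates at r = 0.816 to 0.890 across genes. Printing block 12, 1 (656 spots) was displaced by 1 spot column on the arrays of replicates 1 and 2 and was left out, which removed 460 genes that lie on it alone. Ratios of dim spots understate a difference, because an offset equal to 1.35 RFU was added to both channels.

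By limma with a dye term, 921 genes were higher in dorsal vessel than in whole larva (13.1% of those tested) and 1653 were lower (23.5%) at an adjusted p below 0.05. At least 2-fold, 211 genes were higher (3.0%) and 887 were lower (12.6%). Differences of at least 8-fold were found for 13 higher and 183 lower genes, so the largest differences lay on the lower side. The smallest fold that passed was 1.29 in either direction. The median log2 ratio of all genes tested was -0.05. The direction split depended on the offset: with 50 RFU in place of 1.35 RFU, 759 genes were higher and 644 lower. Leaving out single replicates gave 401 to 884 higher and 1006 to 1475 lower genes, the fewest in both directions without replicate 4. A gene above detection in 1 RNA alone entered the test through the RNA in which it was brighter, so its direction was fixed by the filter. This holds for 39 of the 921 higher genes and 415 of the 1653 lower ones. An "at least" fold below belongs to such a gene and is not a strict lower bound, as set out under the processing. Because the samples are bulk RNA, fewer cells of a type and less RNA per cell cannot be told apart.

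Hand showed the largest ratio of the 7027 genes. Hand encodes a basic helix-loop-helix factor of cardiomyocytes, pericardial cells and the lymph gland. Its intensity over background was 437, 634, 513 and 436 RFU in dorsal vessel RNA of replicates 1 to 4, against 1.24, 16.8, 7.66 and 2.73 RFU in whole larva RNA. The fitted log2 ratio was 5.56 ± 0.37 (SE, 4 arrays, adjusted p = 0.000457), which is 47.0-fold. H15, a T-box factor of the cardiac lineage, read 231, 178, 150 and 60.6 RFU in dorsal vessel and 6.68, 11.1, 7.60 and 8.39 RFU in whole larva. Its log2 ratio was 3.43 ± 0.14 (adjusted p = 0.00011). pnr read 7.97, 7.87, 15.9 and 5.50 RFU in dorsal vessel, against 1.47, 2.21, 2.51 and 2.56 RFU in whole larva, a log2 ratio of 1.18 ± 0.11 (adjusted p = 0.00142). Each of these cardiac regulators was higher in dorsal vessel on 4 of 4 arrays.

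**Figure D1:**
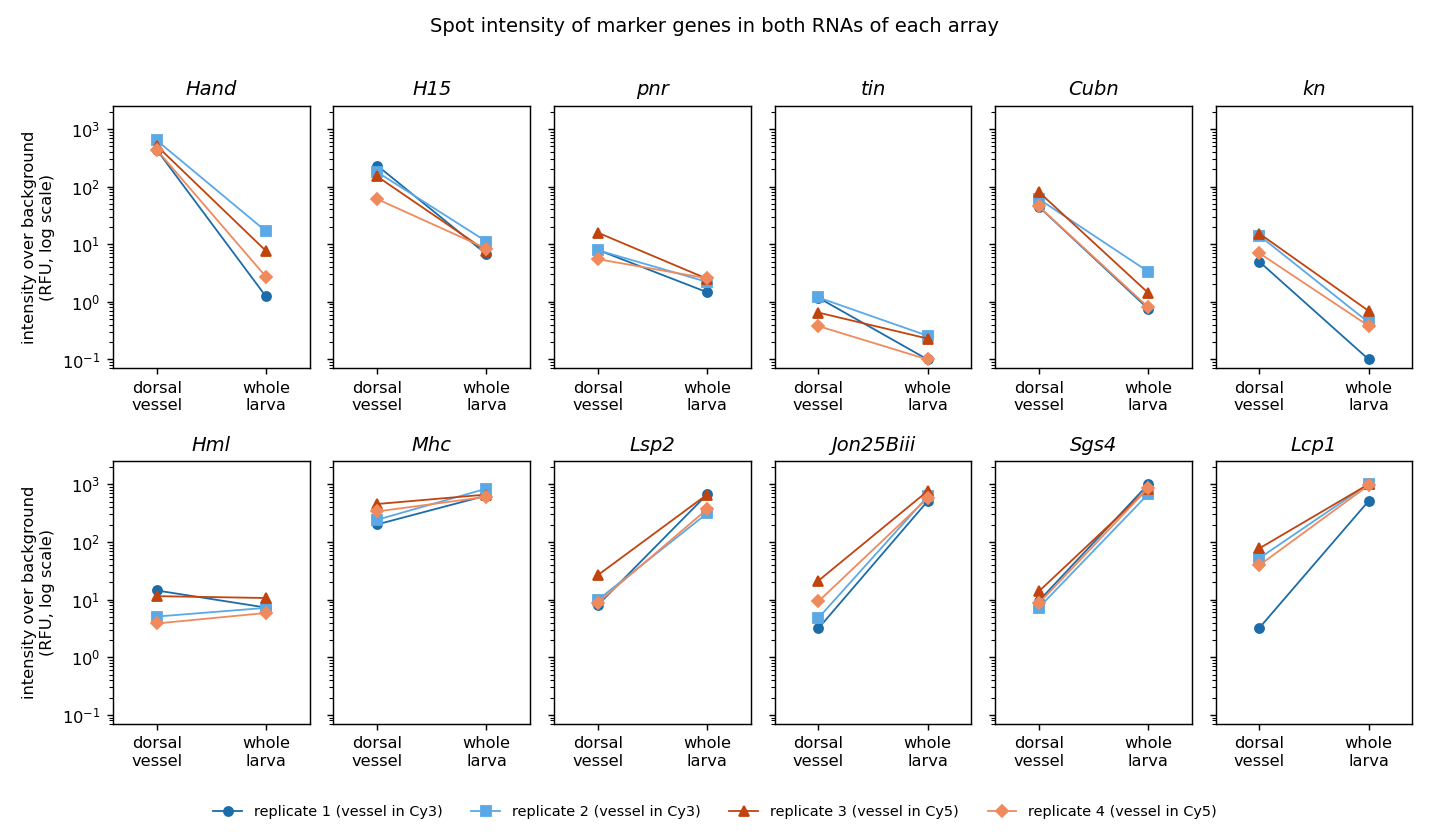
Intensity over local background (RFU, log scale) of 12 marker genes in dorsal vessel RNA (left) and whole larva RNA (right), with 1 line per array. Values under 0.1 RFU are drawn at 0.1. Hand, H15, pnr, Cubn and kn were brighter in dorsal vessel on every array, Hml crossed between arrays, and Mhc, Lsp2, Jon25Biii, Sgs4 and Lcp1 were dimmer in dorsal vessel on every array.

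Of 21 cardiac regulators listed, 15 were tested. Of these, 7 were higher (46.7%, against 13.1% of all genes tested) and 1 was lower (6.7%, against 23.5%). Their median log2 ratio was 0.39, and with the offset of 50 RFU 4 were higher. Besides Hand, H15 and pnr, the homeobox gene bagpipe (bap, log2 ratio 1.94, with a value on replicates 2 to 4 only), odd skipped (odd, 0.98, a marker of pericardial and lymph gland cells), the GATA factor serpent (srp, 0.70, a regulator of blood cells and fat body) and mid (0.89) were higher. mid had log2 ratios of 0.30, 0.93, 1.69 and 0.63, and its call was lost without replicate 2 and without replicate 3 (adjusted p up to 0.199 over all alternatives). tin did not pass (adjusted p = 0.0526). Its spots were above detection on 4 of 4 arrays in dorsal vessel, at 1.18, 1.19, 0.651 and 0.379 RFU, and on 0 of 4 in whole larva, at 0.0087, 0.257, 0.230 and -0.0991 RFU. These values sit so close to background that the ratio of tin carries little information on size. Doc3 had a log2 ratio of -0.07 and Mef2, the general muscle factor, one of 0.19, and neither passed. Doc1 and Doc2 were above detection in whole larva alone. The gene svp, which encodes a nuclear receptor of the inflow cells of the heart and of other tissues, was lower in dorsal vessel, with 5.00, 7.4, 8.64 and 3.35 RFU against 22.2, 36.4, 45.5 and 40.5 RFU in whole larva (log2 ratio -2.19 ± 0.12, adjusted p = 0.000202). prc, which encodes pericardin, a matrix protein around the heart, was above detection in neither RNA on any array and gave no check of the tissue label.

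Among 12 Hox and homeodomain regulators tested, abd-A alone was higher (8.3%, against 13.1% of all genes tested). The lower ones numbered 5 (41.7%, against 23.5%). abd-A sets the identity of the posterior heart. It read 59.9, 39.7, 45.8 and 19.9 RFU in dorsal vessel and 25.2, 18.3, 18.6 and 21.8 RFU in whole larva, with log2 ratios of 0.72, 0.82, 0.65 and 0.33. The fitted value was 0.63 ± 0.12 (adjusted p = 0.0136), and it did not pass without replicate 2 (adjusted p up to 0.132 over all alternatives). homothorax (hth), a cofactor of Hox proteins, was lower at -2.06 ± 0.11 (adjusted p = 0.00021), and Lim1 (at least 1.95-fold, above detection in whole larva alone), mirr (-0.82), caup (at least 1.33-fold, whole larva alone) and ct (-0.56) were lower by less. The calls of mirr and ct were lost without replicate 2, 3 or 4, that of Lim1 without replicate 4, and that of caup whichever replicate was left out, with adjusted p up to 0.142 for ct and up to 0.131 for caup. Ubx was not above detection in either RNA. A further list held 25 tested transcription regulators of other tissues and pathways, of which 3 were higher and 6 lower. Both shares were close to the 13.1% and 23.5% of all genes tested. All 6 lower members were above detection in whole larva alone, so the filter fixed their direction. Dif, the NF-kappaB factor of the Toll pathway, led the higher ones. Its 4 log2 ratios were 3.29, 3.30, 3.18 and 3.42, from 54.4, 50.5, 55.4 and 24.1 RFU in dorsal vessel and 0.958, 2.06, 1.79 and 1.45 RFU in whole larva (fitted 3.30 ± 0.11, adjusted p = 5.54e-05). Its relatives dl (0.30) and Rel (0.43) did not pass. The AP-1 partners kay (0.96, on replicates 2 to 4) and Jra (0.57) were higher, but Jra did not pass without replicate 2, 3 or 4 (adjusted p up to 0.18). The call of kay was lost with the offset of 50 RFU, median centring, averaged oligonucleotides, the authors' ratios or all 8 arrays in 1 fit (adjusted p up to 0.106). The factors vvl, of trachea, and fkh, of salivary gland, were above detection in whole larva alone and were at least 4.35-fold and at least 4.01-fold lower in dorsal vessel. Of 8 genes of the ecdysone response, 4 were lower and 0 higher. ImpE2 was above detection in whole larva alone and at least 4.14-fold lower, and Hr39 was at -0.98. br was at -1.0, a call lost with the offset of 50 RFU, median centring or averaged oligonucleotides (adjusted p up to 0.261). EcR, the hormone's receptor, was at -0.50, a call lost whichever replicate was left out (adjusted p up to 0.183).

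**Figure D2:**
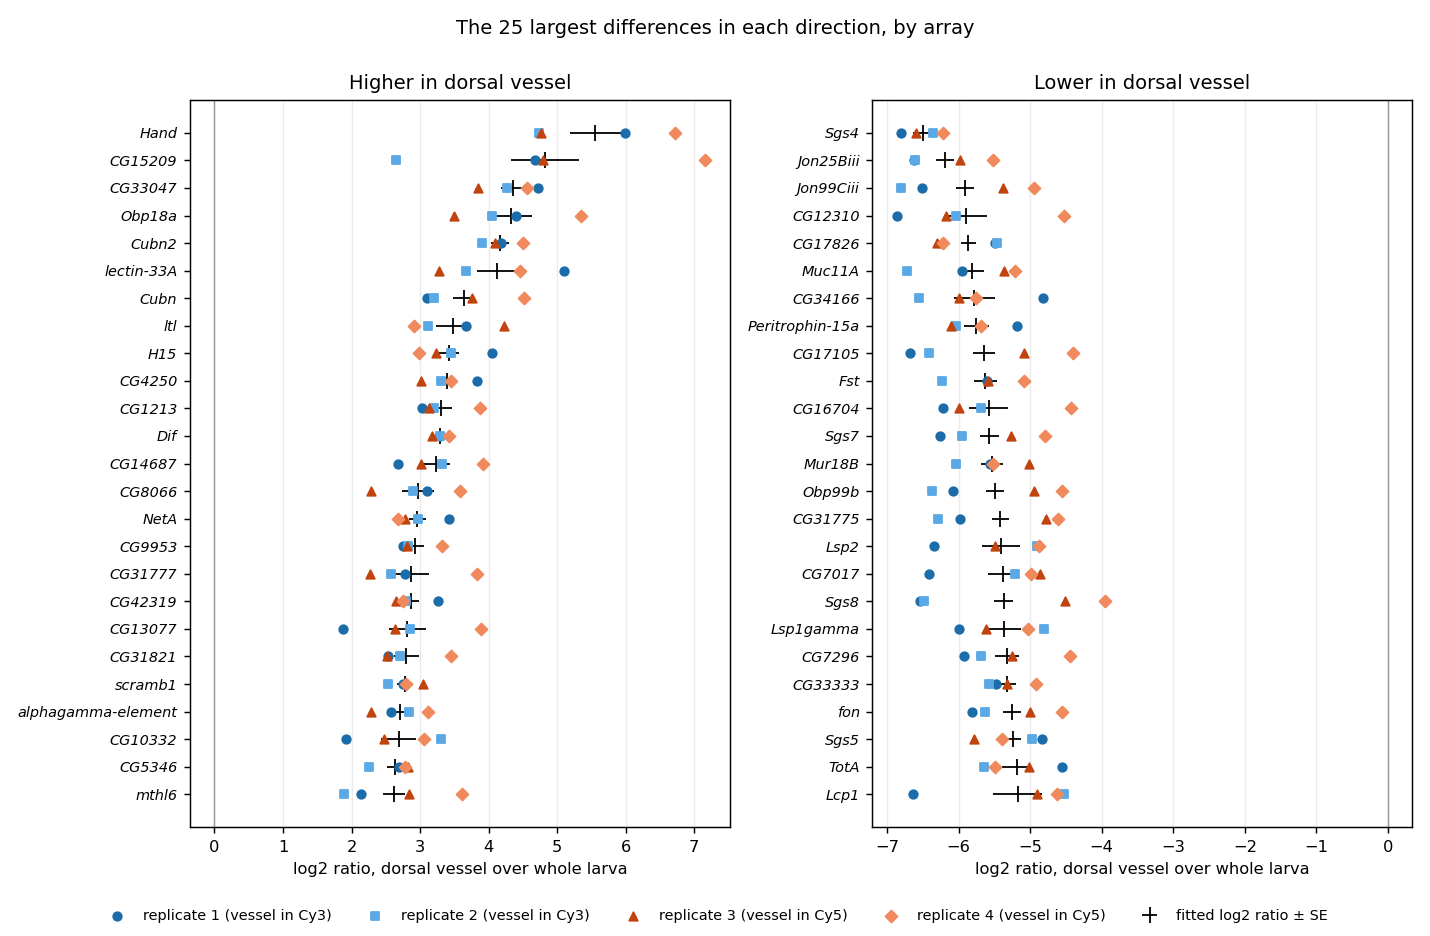
Log2 ratio of dorsal vessel over whole larva for the 25 largest differences in each direction among genes past the test with 1 sign on all arrays. Coloured marks are the 4 arrays and black bars the fitted ratio with its SE. Every array value of the higher genes is at least 1.87, and every one of the lower genes is -3.95 or less.

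Transporters and channels were found on both sides. Of 43 listed pumps, exchangers and solute carriers tested, 9 were higher (20.9%, against 13.1% of all genes) and 10 lower (23.3%, against 23.5%). By the function terms of the array files, which date from the array's annotation, 284 transporter genes were tested, with 37 higher (16 at least 2-fold) and 74 lower (43 at least 2-fold). Their median log2 ratio was -0.13. The share of higher genes in this class was close to the 13.1% of all genes. Lower genes made up 26.1% of it, near the 23.5% of all genes. Of the 74 lower genes, 25 were above detection in whole larva alone.

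The highest gene with a transporter term was CG1213, for which the files give sugar porter activity. It read 249, 342, 250 and 220 RFU in dorsal vessel and 18, 28, 13.9 and 15 RFU in whole larva, a 9.92-fold difference (log2 ratio 3.31 ± 0.16, adjusted p = 0.000143). scramb1, a phospholipid scramblase, followed with log2 ratios of 2.74, 2.54, 3.04 and 2.80. Carbonic anhydrase CAH7 (2.56), the major facilitator MFS10 (2.12), the mitochondrial carrier CG5646 (2.12), the sodium-proton antiporter Nha2 (1.85), the phosphate symporter CG7091 (1.79), the nucleoside transporter Ent2 (1.79) and the phosphate transporter NaPi-III (1.02) were each higher on 4 of 4 arrays. Of 5 sugar transporters tested by name, 2 were lower and 3 did not pass, sut2 (-0.09), sut3 (-0.46) and Glut3 (-0.28). Tret1-1, a trehalose transporter, was lower at -2.59 ± 0.21, with log2 ratios of -1.10, -2.13, -3.86 and -3.28, so that the 2 arrays with dorsal vessel in Cy5 gave the larger differences. Glut1 was above detection in whole larva alone and was at least 2.93-fold lower in dorsal vessel (adjusted p = 0.000589). The zinc transporter ZnT35C (-2.44), the amino acid transporter Eaat2 (at least 2.83-fold, above detection in whole larva alone) and the nucleoside transporter CNT2 (-2.79) were lower.

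Of 16 ferritins, transferrins, metallothioneins and zinc transporters of the ZnT and Zip families that were tested, 4 were higher, 3 lower and 9 did not pass. These families were chosen after their values were seen. Both subunits of secreted ferritin, Fer2LCH and Fer1HCH, which lie next to each other on chromosome arm 3R, were higher. Fer2LCH read 220, 183, 153 and 139 RFU in dorsal vessel and 24.4, 25.5, 18.5 and 20.9 RFU in whole larva (log2 ratio 2.47 ± 0.15, adjusted p = 0.000312). Fer1HCH read 172, 165, 119 and 82.4 RFU in dorsal vessel and 32, 21.5, 27.5 and 27.2 RFU in whole larva (1.83 ± 0.17, adjusted p = 0.00151). Because these families were chosen by their values, the lack of overlap between the RNAs for either subunit is no further support. Transferrin 3 (Tsf3, 1.81) and metallothionein MtnD (1.41, not without replicate 3) were higher too, as were, outside these families, the copper importer Ctr1A (1.17), the divalent metal transporter Mvl (1.08) and the metal-responsive factor MTF-1 (1.05). Metallothionein MtnA (-1.34) was lower, as was ZnT35C, given above. Transferrin 1 (Tsf1), the abundant iron carrier of the hemolymph, was lower, with log2 ratios of -2.57, -2.61, -4.50 and -5.18 (fitted -3.72 ± 0.15, adjusted p = 9.79e-05).

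Of 9 potassium, sodium and pacemaker channels tested, sand and SK were higher, Irk3 and Ork1 were lower and 5 did not pass. Either direction made up 22.2%, against 13.1% higher and 23.5% lower among all genes. sand encodes a 2-pore-domain potassium leak channel. Its log2 ratios were 2.49, 2.64, 2.43 and 2.52, the spots reading 34.4, 56.2, 50.7 and 27.8 RFU in dorsal vessel and 1.78, 5.60, 4.41 and 5.33 RFU in whole larva (fitted 2.52 ± 0.11, adjusted p = 0.000116). SK, a calcium-activated potassium channel, was 2.00-fold higher (adjusted p = 0.00513). Among those without a call, slo had a log2 ratio of 0.06, the pacemaker channel Ih one of -0.28 and Sh one of -0.32. Irk3, an inward rectifier, was at least 2.48-fold lower. Ork1, another leak channel, was above detection on 3 arrays in whole larva and on 0 in dorsal vessel, and its call was lost whichever replicate was left out (adjusted p up to 0.23). Of 14 genes of calcium handling, the ryanodine receptor RyR of the sarcoplasmic reticulum was higher (1.21 ± 0.12, adjusted p = 0.0018). The store-operated channel Orai (-0.99) and the calcineurin subunits CanB (-1.96) and CanA1 (-1.44) were lower. SERCA, the calcium pump, had a log2 ratio of -0.12 and the L-type channel Ca-alpha1D one of 0.41, neither past the test. Of 8 gap junction and mechanosensory genes, the innexins ogre (-3.23) and Inx3 (at least 2.33-fold, above detection in whole larva alone) were lower, and shakB was at least 1.4-fold higher, a call lost whichever replicate was left out (adjusted p up to 0.104).

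Of 19 receptors for peptide hormones and amines tested, 6 were higher (31.6%, against 13.1% of all genes), 1 was lower and 12 did not pass. The median log2 ratio of the 19 was 0.35. The higher members numbered 5 under median centring, 3 without replicate 4 and 1 with the offset of 50 RFU. These 19 are those bright enough to be tested among 61 members on the array. Proc-R, the receptor of the myotropic peptide proctolin, read 28.5, 17.9, 17.6 and 6.81 RFU in dorsal vessel and 0.164, 0.80, 0.957 and 0.617 RFU in whole larva. Its log2 ratio was 2.36 ± 0.12 (adjusted p = 0.000192). TkR99D, a tachykinin receptor, was higher at 1.05 ± 0.20, a call lost without replicate 4 (adjusted p up to 0.0613), and AstA-R2, a receptor of allatostatin A, at 0.76. The methuselah-like receptors mthl2 (0.91), mthl4 (0.86) and mthl3 (0.76) completed the higher members. The calls of mthl4 and mthl3 were lost without replicate 2 and without replicate 4, and that of mthl3 also without replicate 3 (adjusted p up to 0.158). mthl6, which was not on the list, stood above them, with log2 ratios of 2.14, 1.88, 2.84 and 3.61. CrzR, the corazonin receptor, was lower at -0.45, a call lost without replicate 1, 2 or 4 (adjusted p up to 0.152). By the files' terms, 30 G-protein coupled receptors were tested, with 7 higher (23.3%, against 13.1% of all genes) and 3 lower (10.0%, against 23.5%).

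Of the 5 subunits of the muscle-type glutamate receptor, which mediates neuromuscular transmission in the larva, 3 were higher, and GluRIIC (0.61) and GluRIIE (0.33) did not pass. GluRIID had log2 ratios of 1.23, 1.45, 1.45 and 1.27 (fitted 1.35 ± 0.11, adjusted p = 0.00103). GluRIIB was above 0 on 3 arrays, with log2 ratios of 2.03, 1.92, -0.03 and 1.00, and GluRIIA was above detection in dorsal vessel alone and at least 1.38-fold higher, a call lost whichever replicate was left out (adjusted p up to 0.123).

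Among 26 receptor kinases and developmental receptors, 4 were higher (15.4%) and 6 lower (23.1%), shares close to the 13.1% and 23.5% of all genes tested. The higher ones were the TNF receptor wgn (1.06), Pvr (0.92), the PDGF/VEGF-type receptor of hemocytes, the FGF receptor htl (0.71), which acts in the cardiac mesoderm of the embryo, and the cytokine receptor dome (0.61). The calls of htl and dome were lost without replicate 2, and that of dome also without replicate 3 or replicate 4, with adjusted p up to 0.0667 and up to 0.215. Notch (N) was lower, with 2.56, 2.40, 4.21 and 1.16 RFU in dorsal vessel and 17.0, 19.3, 19.3 and 17.9 RFU in whole larva (-1.99 ± 0.12, adjusted p = 0.000278). Ror and drl were above detection in whole larva alone and at least 1.91-fold and at least 1.79-fold lower. The netrin receptor fra (-0.70) was lower too, though not without replicate 2 (adjusted p = 0.0591).

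Endocytic and scavenger receptors had 11 higher and 4 lower members among 25 tested, with a median log2 ratio of 0.43. The higher ones made up 44.0%, against 13.1% of all genes tested, but 5 of the 11 were above detection in dorsal vessel alone. The count of higher members was 5 under median centring, 3 without replicate 4 and 2 with the offset of 50 RFU. Cubn and Cubn2 encode relatives of cubilin, the protein receptor of nephrocytes and of the vertebrate kidney. Cubn2 read 582, 348, 262 and 109 RFU in dorsal vessel and 17.6, 16.6, 6.55 and 4.27 RFU in whole larva (log2 ratio 4.17 ± 0.13, adjusted p = 4.86e-05, not on the list). Cubn read 44.7, 60.7, 80.4 and 45.1 RFU in dorsal vessel and 0.759, 3.35, 1.43 and 0.806 RFU in whole larva (3.64 ± 0.16, adjusted p = 0.000116). Their partner Amnionless was above detection in dorsal vessel alone and at least 1.84-fold higher (adjusted p = 0.0176, lost without replicate 4, up to 0.0867). Immune receptors NimB1 (1.36) and PGRP-LF (1.34), both lost without replicate 4 (adjusted p up to 0.0897 and up to 0.138), NimC3 (1.18) and the phagocytic receptor crq (0.83) were higher. mgl, a lipoprotein-receptor relative of megalin, was lower at -2.21 ± 0.15, and so was the adhesion receptor rst (-1.80). The lipophorin receptors LpR1 (0.27) and LpR2 (-0.01) did not pass.

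**Figure D3:**
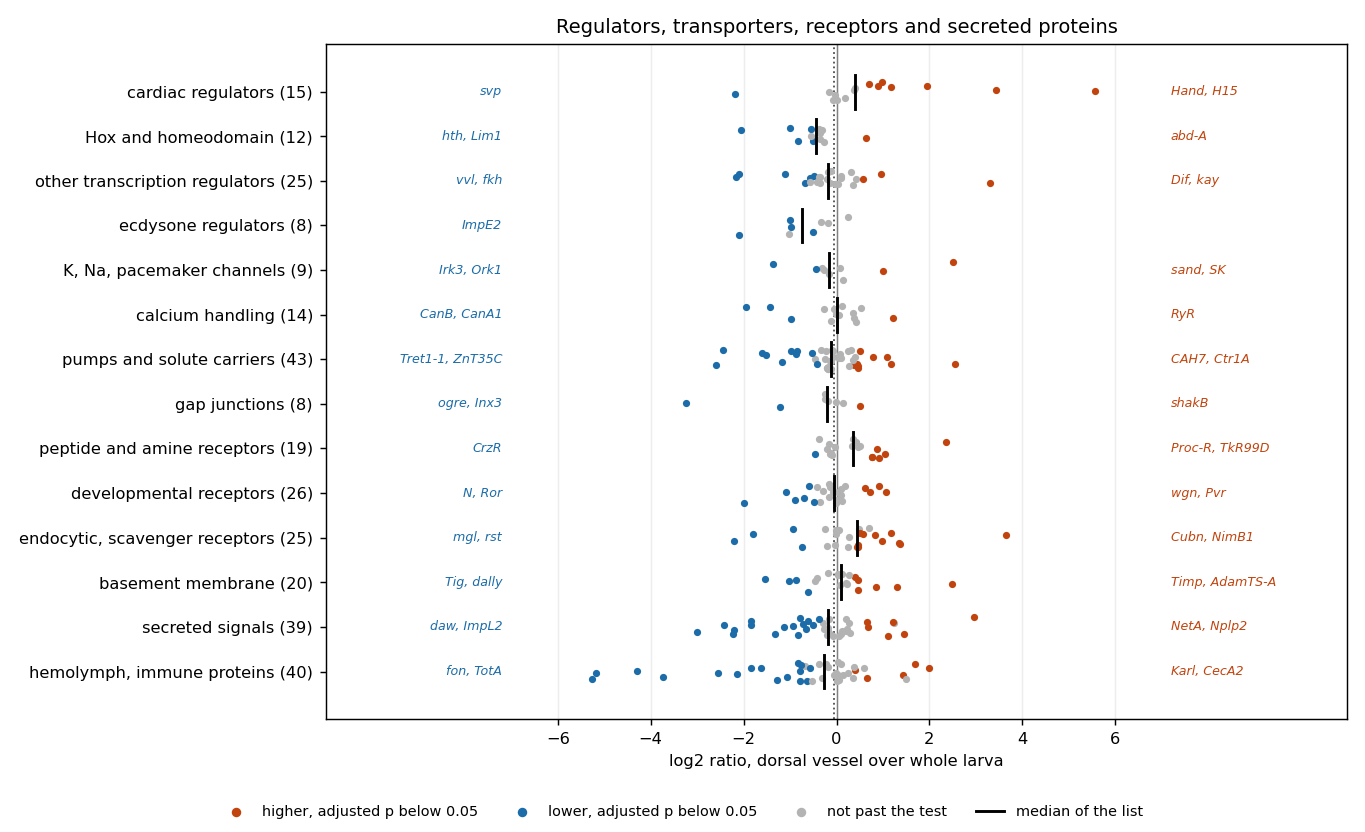
Log2 ratio of dorsal vessel over whole larva of every tested member of 14 lists of regulators, transporters, receptors and secreted proteins, with the number tested in brackets. Points are genes, coloured by the call, the black bar is the median of the list, the dotted line the median of all genes tested (-0.05), and up to 2 leading genes are named at each side. Cardiac regulators, peptide receptors and endocytic receptors have medians of 0.39, 0.35 and 0.43.

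Secreted proteins of the vessel included guidance, matrix and peptide factors. Of 39 listed secreted signals, 6 were higher and 16 lower. NetA, a netrin, read 52.8, 36.1, 36.8 and 14.4 RFU in dorsal vessel and 0.394, 1.71, 1.46 and 1.68 RFU in whole larva, with a log2 ratio of 2.96 ± 0.13 (adjusted p = 0.000116). The other higher ones were the neuropeptide-like precursor Nplp2 (1.45), the TNF ligand egr (1.23), the TGF-alpha type ligand grk (1.11), the myostatin relative myo (0.68) and the BMP ligand gbb (0.66). ITP, the antidiuretic ion transport peptide, was not on the list. It read 134, 99.8, 96.1 and 20.2 RFU in dorsal vessel and 10.2, 12.8, 10.4 and 12.8 RFU in whole larva (2.19 ± 0.23, adjusted p = 0.00191). ltl, a leucine-rich repeat protein known from BMP signalling in the wing, had log2 ratios of 3.67, 3.12, 4.23 and 2.91. The activin-type ligand daw was lower at -3.0 ± 0.11, with log2 ratios of -2.92, -3.02, -3.11 and -2.97, and so were the insulin-binding protein ImpL2 (-2.43), CCHa2 (-2.24) and Gbp2 (-2.22). Neuropeptides of the central nervous system and gut such as Hug (at least 3.36-fold lower), Lk (at least 1.79-fold) and AstA (at least 1.75-fold) were above detection in whole larva alone. Ms, the cardioactive peptide myosuppressin, varied between pools, with log2 ratios of 3.61, -0.54, 2.08 and -0.21, and did not pass (adjusted p = 0.23).

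Across the files' class of extracellular proteins, 172 genes were tested, with a median log2 ratio of -0.54. Of these, 16 were higher (9.3%, against 13.1% of all genes) and 92 lower (53.5%, against 23.5%). Of the 92, 31 were above detection in whole larva alone. Odorant binding proteins had 1 higher member, Obp18a, among 16 tested (6.25%), while 10 were lower (62.5%). Obp18a read 153, 176, 98.9 and 138 RFU in dorsal vessel and 1.95, 6.38, 3.33 and 2.37 RFU in whole larva (4.32 ± 0.31, adjusted p = 0.000556). The C-type lectin lectin-33A read 293, 132, 85.6 and 72.7 RFU in dorsal vessel and 2.63, 6.30, 3.47 and 2.52 RFU in whole larva (4.13 ± 0.30, adjusted p = 0.000613). Lectin-galC1, another member of that family, was lower at -3.74. Peptidase inhibitors were split: CG8066 (2.97), CG31777 (2.87), Timp (2.49) and Spn55B (2.46) were higher, whereas CG16704 (-5.58) and the neighbouring genes CG16713 (-4.87) and IM33 (-4.75), all on arm 2L, were lower. Of 22 genes with a carboxypeptidase term, 5 were higher (22.7%) and 10 lower (45.5%), with a median log2 ratio of -0.41. The neighbouring serine carboxypeptidase genes CG31821 (2.80) and CG31823 (2.34) on arm 2L and the carboxypeptidase CG9953 (2.93) were among the higher ones. Higher, too, were the lysosomal enzymes CtsL1 (2.46) and Hexo2 (2.40).

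Of 40 hemolymph and immune proteins, 5 were higher (12.5%, against 13.1% of all genes) and 16 lower (40.0%, against 23.5%). Karl, a lipocalin, was higher at 2.00 ± 0.13. PPO3, a prophenoloxidase, had log2 ratios of 2.17, 1.08, 0.24 and 2.25, and its call was lost without replicate 1 or replicate 4 (adjusted p up to 0.154). The antibacterial cecropin CecA2 had log2 ratios of 0.44, 2.93, 0.76 and 2.63, high in replicates 2 and 4, and did not pass without replicate 2, 3 or 4 (adjusted p up to 0.22). CecC followed the same replicates (0.17, 3.02, 0.27 and 2.50) and did not pass. fon, a clotting protein, was lower at -5.25 ± 0.13, the stress peptide TotA at -5.18 ± 0.21 and Listericin at -4.29 ± 0.18.

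Basement membrane and matrix genes had 6 higher (30.0%) and 4 lower (20.0%) members among 20 tested, against 13.1% and 23.5% of all genes. Timp, the inhibitor of matrix metalloproteases, read 32.9, 47.8, 27.8 and 9.22 RFU in dorsal vessel and 1.35, 2.38, 2.52 and 1.73 RFU in whole larva (2.49 ± 0.14, adjusted p = 0.000244). The metalloprotease AdamTS-A was higher at 1.30, a call lost without replicate 4 (adjusted p up to 0.101), and perlecan (trol) at 0.85. The laminin chains LanB1 (0.47) and LanB2 (0.41) passed narrowly, and both calls were lost without replicate 1, 2 or 3, that of LanB2 also without replicate 4, with adjusted p up to 0.203 and up to 0.186. LanA (0.03) and the type IV collagen chain vkg (-0.43) did not pass. The integrin ligand Tig (-1.53), the glypican dally (-1.01) and Glt (-0.87) were lower.

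The whole larva is rich in body wall muscle. Of 29 contractile genes tested, 1 was higher in dorsal vessel (3.4%, against 13.1% of all genes), 11 were lower (37.9%, against 23.5%) and 17 did not pass. Under median centring 2 were higher and 4 lower, and with the offset of 50 RFU 1 was higher and 4 lower. Mhc, muscle myosin heavy chain, read 202, 243, 456 and 339 RFU in dorsal vessel and 640, 844, 665 and 608 RFU in whole larva (-1.93 ± 0.18, adjusted p = 0.00141). Act57B, the actin of larval muscle (-2.15), and Mlp84B, a Z-disc protein (-2.14), were lower on 4 of 4 arrays, and so were Actn (-1.06), Prm (-1.04) and bt (-1.01, not without replicate 3, adjusted p up to 0.163). Myofilin (Mf) was the higher member, at 187, 340, 279 and 233 RFU in dorsal vessel and 29.2, 73.2, 92.7 and 84.4 RFU in whole larva (1.45 ± 0.18, adjusted p = 0.00341), although it did not pass when its oligonucleotides were averaged. Mlc2 (0.46), TpnC25D (0.73) and wupA (-0.15) did not pass. The median log2 ratio of the list was -0.15, and over the alternatives it ranged from -0.34 to -0.01.

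Among 22 tested genes of attachment, adhesion and the dystrophin complex, the 6 higher ones were the integrin subunit mew (1.48 ± 0.11), talin (rhea, 1.44), parvin (0.76), sarcoglycan Scgalpha (0.74), kindlin Fit1 (0.72) and integrin-linked kinase Ilk (0.50). Of these, Ilk lost its call whichever replicate was left out (adjusted p up to 0.197), and Scgalpha without replicate 2, 3 or 4 (adjusted p up to 0.0934). The integrin subunit mys (-0.11) and vinculin (Vinc, 0.44) were among the 11 that did not pass. Higher genes made up 27.3% of the 22 and lower genes 22.7%, against 13.1% and 23.5% of all genes. The 5 lower ones were sinu (-1.54), Nrx-IV (-1.35), Fas3 (-1.0), cold (-0.98) and kune (-0.58, not without replicate 1, 2 or 3, adjusted p up to 0.14), all of which belong to the septate junctions of epithelia. Beside this list, cno, which links adherens junctions to actin, had log2 ratios of 2.12, 2.93, 2.92 and 2.40, and betaTub97EF, a tubulin isotype, had 1.62, 1.35, 1.03 and 1.87.

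Markers of cells that lie against the vessel were counted by list, and the lists share members with those above. Hand, Cubn, Amnionless, sns, pyd and Mec2 of the nephrocyte list were counted there too. So were odd, srp, Pvr, dome, crq and Adgf-A of the lymph gland list. Of 13 lymph gland and hemocyte regulators tested, 9 were higher (69.2%, against 13.1% of all genes) and 0 lower. The median log2 ratio of the 13 was 0.70. With the offset of 50 RFU 3 were higher, and under median centring 6. The summed intensity of the 13 was 353 to 615 RFU in dorsal vessel and 95.9 to 139 RFU in whole larva. kn, the factor of the lymph gland niche, read 4.95, 14.0, 15.2 and 6.97 RFU in dorsal vessel and -0.124, 0.438, 0.694 and 0.38 RFU in whole larva (1.92 ± 0.22, adjusted p = 0.00278). Among the 4 that did not pass, Antp was at -0.28, above detection on 1 array in dorsal vessel and on 4 in whole larva. He, a hemocyte surface protein, read 75.5, 43.2, 179 and 79.2 RFU in dorsal vessel and 7.37, 19.8, 21.3 and 14.7 RFU in whole larva (2.01 ± 0.28, adjusted p = 0.00535), and Ance was higher at 1.58. Markers of circulating macrophages were divided, in that crq and NimC3, given above, were higher and others did not pass. Hml had log2 ratios of 0.45, -0.45, -0.22 and 0.20, NimC1 was at -0.02, and eater (0.71) and Sr-CI (0.48) did not pass. Of 10 pericardial nephrocyte genes, 7 were higher (70.0%, against 13.1% of all genes) and 0 lower. However, 5 of the 7 were above detection in dorsal vessel alone, so that the filter fixed their direction. With the offset of 50 RFU, and likewise without replicate 4, 2 of the 10 were higher. Their summed intensity, most of it from Hand, was 491 to 719 RFU in dorsal vessel and 6.96 to 23.6 RFU in whole larva, where 5 of the 10 were never above detection. Klf15, the nephrocyte factor, was above detection in dorsal vessel alone, at least 2.11-fold higher (adjusted p = 0.0444), and lost its call without replicate 2, 3 or 4 (adjusted p up to 0.191). The slit diaphragm genes sns (at least 1.31-fold), pyd (at least 1.33-fold) and Mec2 (at least 1.29-fold) were above detection in dorsal vessel alone and lost their calls whichever replicate was left out (adjusted p up to 0.216, 0.181 and 0.164). Of 10 ring gland genes, 1 was higher (10.0%) and 2 lower (20.0%), near the 13.1% and 23.5% of all genes. The higher one was spo (0.49, a call lost whichever replicate was left out), and the lower ones were spok (-1.27) and phtm (-1.94). The summed intensity of the 10 was 6.03 to 18.4 RFU in dorsal vessel and 25.4 to 33.8 RFU in whole larva. How much of any other result came from nephrocytes, lymph gland or hemocytes in the dissected tissue was not tested.

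**Figure D4:**
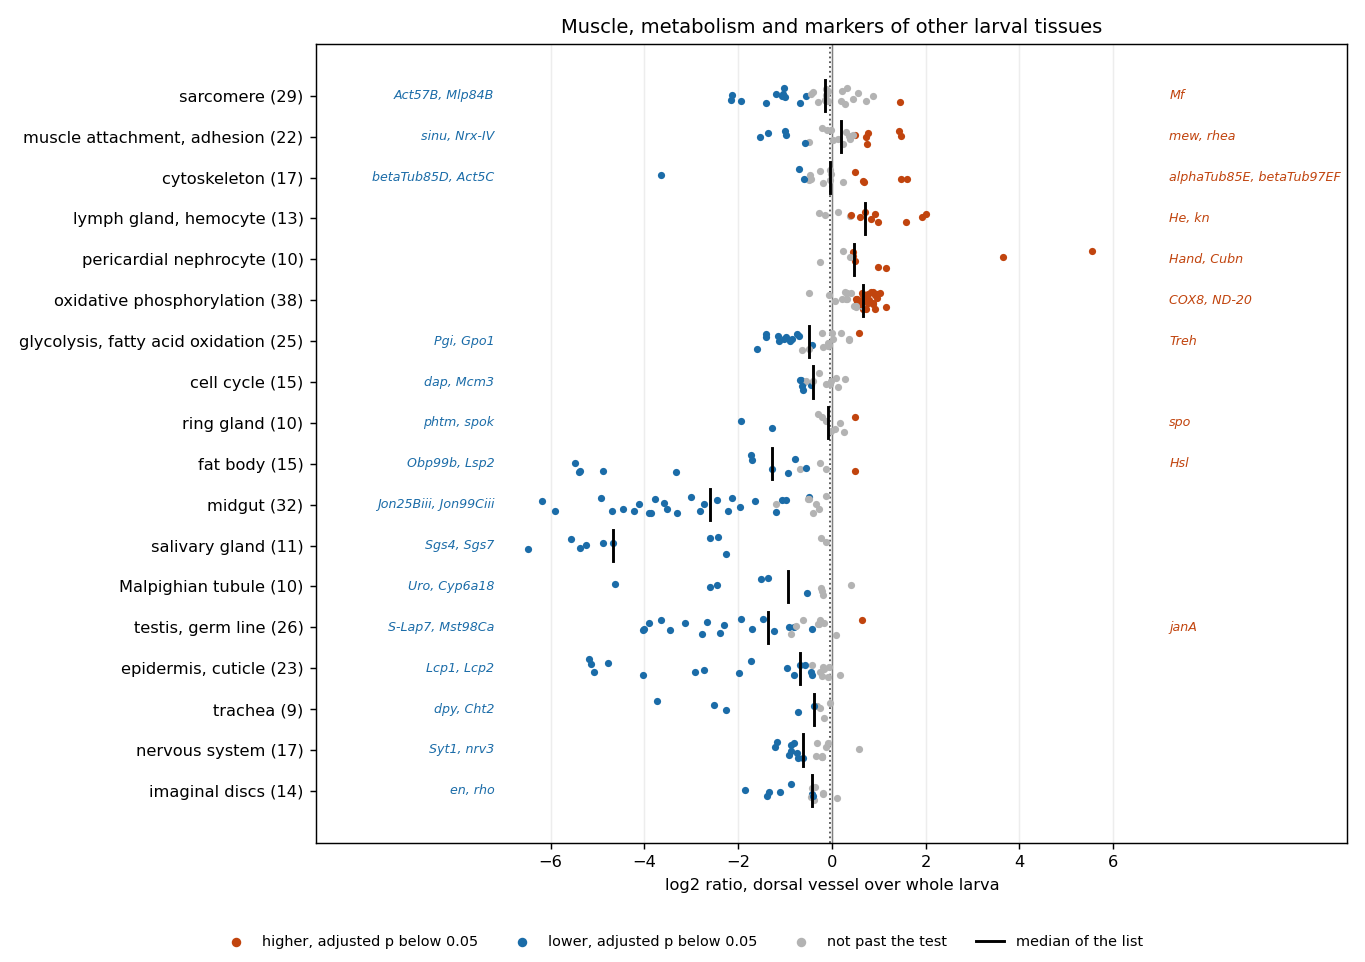
Log2 ratio of dorsal vessel over whole larva of every tested member of 18 lists of muscle, metabolic and tissue genes, drawn as in the plot of regulators and receptors. Lymph gland, nephrocyte and oxidative phosphorylation genes have medians of 0.70, 0.48 and 0.66, and salivary gland and midgut genes of -4.66 and -2.59.

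Of 38 tested genes of oxidative phosphorylation, 25 were higher (65.8%, against 13.1% of all genes), 0 lower and 13 did not pass. The median log2 ratio of the 38 was 0.66, with list medians of 0.28 to 0.92 on single arrays. ND-20 of complex I had log2 ratios of 1.27, 1.19, 0.68 and 0.99, SdhD of complex II 0.95, 0.78, 0.77 and 1.39, and COX5A of complex IV 0.99, 0.77, 0.80 and 0.53. COX8 was highest at 1.16. Of 10 ATP synthase subunits, 5 were higher, among them ATPsynD (0.83) and blw (0.67, not without replicate 2 or 4), and 5 did not pass, among them ATPsynbeta (0.30) and ATPsynC (-0.49). Without replicate 2, and likewise without replicate 4, 13 of the 38 were higher. The mitochondrial ribosomal proteins had 32 higher (58.2%) and 0 lower members among 55, with a median of 0.54. The higher ones numbered 10 without replicate 4, 13 without replicate 2, 14 without replicate 1 and 20 under median centring. The cytoplasmic ribosomal proteins had 26 higher (29.5%) and 2 lower (2.3%, against 23.5% of all genes) among 88, with a median of 0.44. RpS5b, a copy enriched in the germ line, was lower at -2.43. For cytoplasmic ribosomal proteins the count moved with the scaling, to 70 higher under median centring and to 6 higher without replicate 4. Glycolysis and fatty acid oxidation genes had 1 higher (4.0%) and 12 lower (48.0%) among 25, with a median of -0.49. Pgi (-1.60), Gpo1 (-1.41), Hex-A (-1.40) and Glyp (-1.12) were lower on 4 of 4 arrays, and trehalase (Treh, 0.57) was the higher one, a call lost without replicate 2, 3 or 4 (adjusted p up to 0.149).

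Genes known only by a CG number made up 276 of the 921 higher and 731 of the 1653 lower genes, out of 2643 tested. Against 13.1% higher and 23.5% lower among all genes tested, these were 10.4% and 27.7% of the CG-numbered genes. At least 2-fold, 72 were higher and 412 lower, and for 43 of the 72 and 270 of the 412 the array files gave no function. After Hand, CG15209 had the largest ratio of all genes tested. It read 1117, 1083, 1026 and 878 RFU in dorsal vessel, where the brightest spots of that RNA read 1141 to 1389 RFU, and 23.7, 134, 15.3 and 4.51 RFU in whole larva. Its log2 ratios of 4.68, 2.66, 4.79 and 7.17 had the widest spread among the 25 highest genes, set by the whole larva channel, and the fitted value was 4.82 ± 0.49 (adjusted p = 0.0018). CG33047 read 322, 362, 249 and 144 RFU in dorsal vessel and 5.14, 12.9, 7.73 and 5.59 RFU in whole larva, a 20.4-fold difference (4.35 ± 0.17, adjusted p = 8.59e-05). CG4250 read 389, 354, 322 and 244 RFU in dorsal vessel and 15.2, 27.1, 19.2 and 22.6 RFU in whole larva (3.40 ± 0.15). These 3 were picked by their ratios, so the lack of overlap between the RNAs is no further support. None has a function term in the files.

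Further CG-numbered genes followed with tight replicates or wide ones. CG42319 had log2 ratios of 3.26, 2.79, 2.65 and 2.75, and CG5346 of 2.70, 2.25, 2.83 and 2.78. CG30116, for which the files give apoptotic protease activator activity, had 2.38, 2.45, 2.49 and 2.61. CG14687 was wider at 2.68, 3.32, 3.01 and 3.92, as were CG13077 at 1.87, 2.86, 2.63 and 3.90 and CG10332 at 1.91, 3.30, 2.47 and 3.05. All 6 were higher on 4 of 4 arrays. The alphagamma-element RNA (lncRNA:alphagamma-element:CR32865) was the one noncoding RNA among the 25 highest genes, at 2.70 ± 0.17. On the lower side, CG12310 (-5.90), CG17826 (-5.87), CG34166 (-5.78), CG17105 (-5.65) and CG16704 (-5.58) led. CG17826 and CG7017 (-5.37) carry a chitin binding term.

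The lower genes included products of larval glands, gut, fat body and skin. The glue protein gene Sgs4 of the salivary gland had the lowest ratio, with 9.48, 7.27, 13.9 and 8.65 RFU in dorsal vessel and 1001, 679, 846 and 861 RFU in whole larva, a 90.0-fold difference (-6.49 ± 0.14, adjusted p = 3.8e-05). Of 11 salivary gland genes, 9 were lower (81.8%, against 23.5% of all genes) and 0 higher. Of 32 midgut digestive genes, 25 were lower (78.1%) and 0 higher. The Jonah protease gene Jon25Biii read 3.16, 4.79, 21.2 and 9.29 RFU in dorsal vessel and 510, 616, 765 and 579 RFU in whole larva (-6.18 ± 0.13, adjusted p = 3.8e-05). Mucins and proteins of the peritrophic matrix, the lining of the gut, were lower too (Muc11A -5.81, Peritrophin-15a -5.75, Mur18B -5.53, Muc96D -4.54).

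Of 15 fat body genes, 11 were lower (73.3%, against 23.5% of all genes). The 1 higher gene was Hsl, a lipase (0.50, adjusted p up to 0.143 over all alternatives). The summed intensity of the 15 was 152 to 341 RFU in dorsal vessel and 2125 to 3338 RFU in whole larva. The storage protein gene Lsp2 read 8.02, 9.86, 26.6 and 8.87 RFU in dorsal vessel and 668, 313, 664 and 370 RFU in whole larva (-5.40 ± 0.26, adjusted p = 0.000154), and Obp99b (-5.49), Lsp1gamma (-5.36) and Fbp1 (-4.89) were lower on 4 of 4 arrays. Lsp2 was still above detection in dorsal vessel on 4 of 4 arrays, as was Sgs4. Of 23 cuticle genes, 15 were lower (65.2%) and 0 higher. Lcp1 read 3.25, 52.5, 77.7 and 39.7 RFU in dorsal vessel and 517, 1023, 1009 and 968 RFU in whole larva, replicate 1 being far below the others in the vessel. grh, the factor of epidermal differentiation, was lower at -3.44, and the tracheal matrix genes dpy (-3.73) and pio (-2.26) were lower. Of 17 nervous system genes, 9 were lower (52.9%) and 0 higher (Syt1 at least 1.92-fold lower, elav -0.73). Of the 9, 6 were above detection in whole larva alone. Of 14 imaginal disc genes, 7 were lower and 0 higher (en at least 3.43-fold lower), and 6 of the 7 were above detection in whole larva alone. Of 10 Malpighian tubule genes, 6 were lower (60.0%), led by Uro, urate oxidase, at -4.62.

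Testis and germ line genes were lower, with ratios that varied between arrays. Of 26 tested, with a median of -1.36, 17 were lower (65.4%, against 23.5% of all genes). The 1 higher gene was janA (0.65, not without replicate 1 or 4, adjusted p up to 0.31). S-Lap7, a sperm leucyl aminopeptidase, read 5.08, 1.96, 3.94 and 21.7 RFU in dorsal vessel and 166, 288, 27.5 and 203 RFU in whole larva, with log2 ratios of -4.62, -6.17, -2.42 and -2.93. betaTub85D, the testis tubulin, read 1.57, 1.16, 1.72 and 16.2 RFU in dorsal vessel and 109, 139, 19.1 and 95.5 RFU in whole larva, with log2 ratios of -4.64, -5.34, -2.45 and -2.11. In both genes replicate 3 was lowest among the whole larva pools and replicate 4 highest among the vessel pools. Replicates 1 and 2, with dorsal vessel in Cy3, gave the larger differences in both, so dye and pool cannot be told apart in the ratios.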

How the data were processed

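Each deposited file holds, per the file headers, a scanner intensity (spot volume) and a local background for Cy3 and Cy5 in RFU, with neither background subtracted nor dyes normalized. The authors also deposited a table of log2 ratios made with limma per the submitters' processing notes, whose version is not given in the sources used here. It was used as an alternative, and setting it against the scanner values gave dorsal vessel over whole larva with array medians from -0.0175 to -0.0034, while its background correction and normalization stay unknown.

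In R 4.3.3 with limma 3.58.1, intensities were scaled by 36.9, corrected with normexp and an offset of 50, and normalized by loess (span 0.3, 4 iterations), with control and marked spots at weight 0. A printing block of 656 spots, displaced on 2 arrays, was left out. Spots were averaged per oligonucleotide, and the brightest oligonucleotide stood for its gene. A spot was detected if its signal exceeded 95% of the negative and empty spots. The fit used the 4 arrays, a dorsal vessel term and a dye term (2 residual and 3.32 prior degrees of freedom), with empirical Bayes and Benjamini-Hochberg adjustment at 0.05. Both RNAs of a replicate share an array, so the ratio pairs them. Genes above detection in 1 RNA only are given as "at least" folds. The reading of the other RNA was raised to the lowest normalized level of any detected oligonucleotide on that array and RNA. Where it already lay above that level, it was kept as read. Such a fold can therefore lie close to the fitted ratio and is not a strict lower bound. Tested on data drawn with known answers for 5920 genes, the fit found 17.9% of 1.5-fold, 64.2% of 2-fold and 89.4% of 4-fold changes. It understated their size. The changes were placed only in genes above detection in both RNAs on all 4 arrays, so these shares do not cover dimmer genes. The changed genes numbered 66 or 67 at each fold, with either sign equally likely. In the real data 2574 genes were called, more of them lower, so the shares need not hold for the real fit. Arrays give no counts, and their number limits the precision. Oligonucleotides were not realigned: 12644 of 14450 were named by locus tag and 1127 by an older identifier, and 679 kept the file's name.

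The genes and lists were chosen with earlier results of these data known. Named genes are the 25 largest and 25 smallest ratios past the test with 1 sign on all arrays, up to 4 members of each list by adjusted p, the 10 highest and 10 lowest CG-numbered genes, and a set of cardiac and tissue markers. Further genes were chosen after their values were seen. Alternatives covered background, offset, normalization, filter, oligonucleotides, dye term, samples, pairing and each replicate.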

Additional observations from a re-analysis of the deposited data

Results flagged for a closer look

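Of 320 named genes, 11 had 1 array whose log2 ratio stood far from the other 3 by Dixon's test at its 95% critical value for 4 samples. Chance flags about 1 in 20 such groups. Replicate 4 stood apart in 7 of them. CG9953 read 3.318 there, against 2.744 to 2.831 on the other arrays. Ca-alpha1D read -0.06792, against 0.5448 to 0.6051. Inx3 read -0.815, against -1.392 to -1.303. LanB1 read 0.03578, against 0.5741 to 0.6501. Mlp84B read -1.611, against -2.389 to -2.268. The ecdysone response gene br read -1.729, against -0.8199 to -0.6942, and how, a muscle RNA-binding protein, -1.069, against 0.2762 to 0.5385.

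In replicate 1, Hug read -1.083, against -2.195 to -2.058, and Scgalpha 0.2025, against 0.8902 to 0.9562. In replicate 2, N read -2.203, against -1.937 to -1.895. In replicate 3, Gbp1 read 0.06012, against 0.2324 to 0.2632. Leaving the array out is among the alternatives for each of these genes.

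Control spots outside the gene comparison also carried signal. Before normalization, spots named for ratios of 1:10 and 10:1 lay 6.51 log2 units apart (median of 4 arrays, 5.9 to 6.87), against 6.64 if the names are the design ratios. After normalization they lay 5.93 to 6.55 apart. Spots named for 1:3 and 3:1 lay 3.94 to 4.73 apart before normalization, against 3.17 by their names. After it they lay 1.29 to 2.99 apart. The labels do not say whether control RNA was added.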

How the results depend on the processing

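With 50 RFU in place of 1.35 RFU as offset, 644 genes were lower, 43 were at least 2-fold higher and 114 at least 2-fold lower. Median centring gave 337 genes at least 2-fold higher, and 1428 genes were at least 2-fold lower without background subtraction and 1414 with the authors' log2 ratios. Leaving out single replicates gave 401 to 884 higher, 1006 to 1475 lower, 184 to 261 at least 2-fold higher and 771 to 1016 at least 2-fold lower genes. Without the replicate block that pairs the RNAs of an array, 676 genes were higher and 1416 lower, and 1995 of the 2574 calls were shared. Of 320 named genes, 0 changed sign with a call under the 15 alternatives. Calls were lost by 86 of them under the larger offset, 47 under median centring, 46 without replicate 4, 43 without replicate 2, 31 without replicate 3 and 22 without replicate 1. Keeping the displaced block, an alternative chosen after seeing the data, gave 937 higher and 1701 lower genes. The median of all genes was -0.15 without background subtraction. Beyond what is stated, the cause was not tested. Signal over background limits the dim genes, where folds are understated. Another oligonucleotide of the same gene had the opposite sign in 72 of 197 called genes with one, 20 of them above detection.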

Other observations

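Detoxification and immune families held members on both sides. Of 27 glutathione transferases tested, 8 were higher (29.6%, against 13.1% of all genes) and 6 lower (22.2%, against 23.5%) in dorsal vessel. GstD3 had log2 ratios of 1.63, 2.05, 2.13 and 3.50, GstE6 of 0.57, 1.71, 1.10 and 2.53, and GstD1 of 0.69, 0.54, 1.27 and 2.62, so that replicate 4 was highest in all 3. The call of GstE6 was lost without replicate 4. Cytochrome P450 genes had 5 higher (10.6%) and 19 lower (40.4%) members among 47, from Cyp9f3 at 0.91 to Cyp4d1 at -4.78. Of 9 peptidoglycan recognition proteins tested, 3 were higher (33.3%) and 4 lower (44.4%). The higher ones were PGRP-LF (1.34), a call lost without replicate 4, PGRP-LA (0.60), lost without replicate 2 or 4, and PGRP-LC (0.43), lost whichever replicate was left out. The lower ones were PGRP-SC1b (-2.83), PGRP-SC2 (-2.56), PGRP-SB1 (-1.11) and PGRP-SD, which was above detection in whole larva alone. PGRP-LB (0.59) and PGRP-LE (0.26) did not pass.

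Tetraspanins, membrane proteins with a shared fold, had 6 higher (25.0%) and 8 lower (33.3%) members among 24, against 13.1% and 23.5% of all genes. Tsp42Eg (1.71), Tsp42Ej (1.35), Tsp42Ed (1.34) and Tsp42En (1.21) were higher, the last not without replicate 2 or replicate 4, and Tsp29Fb (-4.22) and Tsp29Fa (-2.95) were lower. Of 7 serpins, the 6 named Spn and nec, Spn55B (2.46) and Spn31A (1.30) were higher and nec (-0.77) was lower.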
